A study of Mus musculus with 24 samples.

Results

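A set of 6 genes used as markers of peritoneal and serosal macrophages was followed in macrophages sorted from orthotopic colon tumors. They were Gata6, Prg4, Alox15, Icam2, Saa3 and Slpi, found by matching these symbols to Ensembl gene IDs, and each matched 1 of the 55487 genes in the count table. The tumors were grown from MC38, a mouse colon carcinoma line, in C57BL/6J mice, and the implanted tumor cells either lacked Apc (APC-KO) or carried it (APC-WT). Apc is the tumor suppressor that restrains Wnt signalling. The macrophages were taken from both kinds of tumor as CD45+ CD11b+ F4/80+ cells and came from hosts of 1 strain whose own Apc was not targeted. RNA of 4 tumors was made into libraries by a protocol for very small inputs. These were APC-KO tumors 1 and 2 and APC-WT tumors 1 and 2, and each tumor had 6 libraries, 24 in all. The labels give no age or time of growth, and do not say whether the APC-KO line was 1 clone.

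Resident macrophages of the peritoneal cavity depend on the transcription factor GATA6, which retinoic acid from the mesothelium and omentum maintains, and large peritoneal macrophages carry ICAM2 on their surface. GATA6-dependent cells also make lubricin (Prg4), and 12/15-lipoxygenase (Alox15) is a further product of resident peritoneal macrophages in mice. Saa3 and Slpi are of another kind: macrophages of many tissues induce them when they meet bacterial products or inflammatory cytokines, so neither marks a cavity by itself.

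The genes fell into groups that differed in level. Saa3 and Slpi were abundant in all 4 tumors, Icam2 was low but well above background, and Gata6, Prg4 and Alox15 lay close to the background of the APC-KO libraries. The call of a gene as higher in APC-KO therefore carried different weight for each, as set out below. Levels are given as scaled CPM, which are CPM relative to the TMM-scaled total of the 3956 genes called expressed. TMM, the trimmed mean of M values, scales libraries so that most of those genes do not differ.

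The APC-KO libraries held 8895722 to 19328572 counts each, and the APC-WT libraries 28018638 to 93568353. The composition differed as well. Counts on 1972 olfactory and vomeronasal receptor genes, which macrophages are not known to express, set an expected background per kb of exon. Spread over all genes, that background came to 17.6% and 17.9% of the counts in APC-KO tumors 1 and 2, against 0.751% and 5.05% in APC-WT tumors 1 and 2. Another 4 loci, similar in sequence to Gm10800, a satellite-like gene, held 31.5% and 32.1% of the APC-KO counts, against 1.08% and 5.86% of the APC-WT counts. All 10 of 10 pan-macrophage markers, among them Csf1r, Cd68 and C1qa, reached at least 3 times their expected background in each tumor, as did all 3 sort antigens. Apc itself read 69.0 ± 7.27 and 67.2 ± 3.96 scaled CPM for APC-KO tumors 1 and 2, against 29.4 ± 1.74 and 22.4 ± 1.49 in APC-WT tumors 1 and 2 (library mean ± SD, n = 6 each). Its expected background was 41.2 and 42.4 in APC-KO and 0.807 and 5.87 in APC-WT, and since the cells are host cells this gene does not check the labels.

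**Figure D1:**
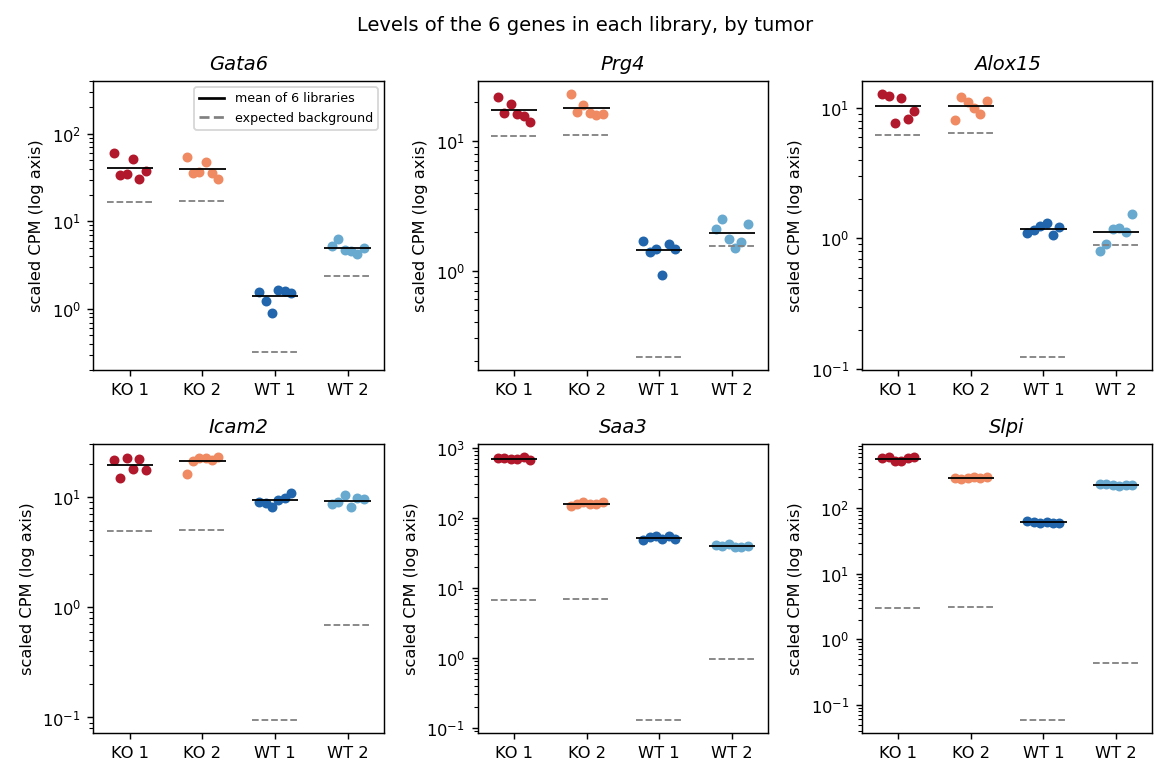
Scaled CPM (log axes, with a different range in each panel) of the 6 genes in every library of APC-KO tumors 1 and 2 (KO 1, KO 2) and APC-WT tumors 1 and 2 (WT 1, WT 2). Points are libraries, solid lines the mean of 6 libraries and dashed lines the expected background. Saa3 and Slpi stand far above the dashed lines in each tumor. Prg4 and Alox15 stand close to them in 3 of the 4 tumors, at up to 1.65 times with the libraries of a tumor summed.

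Saa3 encodes a serum amyloid A protein that macrophages and fat tissue make in the acute phase response, and it lies on chromosome 7 (46711998 to 46715700, minus strand, GRCm38). Slpi encodes the secretory leukocyte protease inhibitor, which blocks neutrophil elastase and cathepsin G, and lies on chromosome 2 (164354070 to 164389095, minus strand). These were the only members among the expressed genes, and of the 6 they were the 2 with a promoter in the RefSeq table used. The 250 bases before each RefSeq start are given (GRCm38.p6, minus strand, chr7:46715677-46715926 and chr2:164356508-164356757). These starts differ from the gene bounds stated above. The Slpi window lies wholly inside the bounds of its gene, and the Saa3 window partly inside. They are shown because both genes changed between tumors of the same genotype. A further reason is that C/EBP and GATA factors are named in macrophage and peritoneal gene control. Capitals mark matches to TTGCNNAA, the core of a C/EBP site, and to AGATAA or TGATAA, letters bound by GATA factors, on either strand.

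Saa3: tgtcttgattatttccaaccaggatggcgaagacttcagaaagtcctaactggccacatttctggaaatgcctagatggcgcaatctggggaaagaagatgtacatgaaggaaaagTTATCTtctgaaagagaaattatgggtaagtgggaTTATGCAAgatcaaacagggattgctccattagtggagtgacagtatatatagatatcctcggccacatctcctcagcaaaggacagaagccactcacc

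Slpi: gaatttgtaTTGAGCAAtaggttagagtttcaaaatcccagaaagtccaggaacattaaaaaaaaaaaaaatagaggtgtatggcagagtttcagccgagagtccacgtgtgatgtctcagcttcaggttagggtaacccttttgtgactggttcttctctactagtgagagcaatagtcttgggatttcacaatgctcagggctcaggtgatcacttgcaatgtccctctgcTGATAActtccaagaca

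In Saa3 the first capitals, TTATCT, are AGATAA read on the other strand (positions -134 to -129 from the start), and the second, TTATGCAA, match the C/EBP letters on the other strand (-99 to -92). In Slpi, TTGAGCAA matched the C/EBP letters on the other strand (-241 to -234) and TGATAA lay at -17 to -12. No match overlapped another. Of 32851 mouse promoters of the same length, 9.56% held TTGCNNAA, 9.99% AGATAA and 7.94% TGATAA. Matches to an NF-kB motif (45.8% of promoters) and to TATAAA (12.4%) were not found in either window, which says only that these letters are absent there.

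Saa3 had the clearest difference. Its lowest, median and highest library read 669, 698 and 741 scaled CPM in APC-KO tumor 1 and 147, 158 and 167 in APC-KO tumor 2. In APC-WT tumor 1 they read 48.3, 51.9 and 55.7, and in APC-WT tumor 2 38.2, 39.5 and 42.4. The 4 tumors did not overlap, both APC-KO tumors were above both APC-WT tumors, and on the log scale the 2 APC-KO tumors differed from each other by more than APC-KO tumor 2 differed from APC-WT tumor 1. Expected background was 6.66 and 6.85 scaled CPM in APC-KO and 0.131 and 0.949 in APC-WT, so that Saa3 stood at 107, 23.7, 396 and 41.0 times its background in APC-KO tumors 1 and 2 and APC-WT tumors 1 and 2.

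Slpi had another order. It read 531, 588 and 612 scaled CPM in APC-KO tumor 1 and 276, 291 and 300 in APC-KO tumor 2 (lowest, median and highest library). APC-WT tumor 1 had 60.2, 61.4 and 63.2, and APC-WT tumor 2 had 220, 229 and 235. The tumors again did not overlap, but APC-KO tumor 2 and APC-WT tumor 2 were neighbours and APC-WT tumor 1 stood alone at the low end. Slpi was 195, 95.5, 1035 and 520 times its expected background in APC-KO tumors 1 and 2 and APC-WT tumors 1 and 2. The SD of Slpi over the libraries of a tumor was small beside these differences, at 35.3 and 8.89 in APC-KO tumors 1 and 2, and 1.23 and 5.84 in APC-WT tumors 1 and 2.

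Icam2 encodes intercellular adhesion molecule 2, a ligand of the integrin LFA-1 that is also abundant on endothelium (chromosome 11, 106377656 to 106388075, minus strand). It read 14.8, 19.7 and 22.5 scaled CPM in APC-KO tumor 1 and 16, 22 and 23.1 in APC-KO tumor 2 (lowest, median and highest library). APC-WT tumors 1 and 2 had 8.19, 9.19 and 10.8 and 8.19, 9.23 and 10.4. Before background was taken off the genotypes did not overlap, and tumors of 1 genotype overlapped each other. The lowest APC-KO library, library 2 of tumor 1, read 14.8 with an expected background of 5.08. The highest APC-WT library, library 6 of tumor 1, read 10.8 with an expected background of 0.0987. With background taken off from each library, the genotypes therefore overlapped. How many of all genes separate by genotype was not counted. With libraries summed and background taken off, 14.9 and 16.7 scaled CPM remained in APC-KO tumors 1 and 2. In APC-WT tumors 1 and 2, 9.15 and 8.36 remained. In APC-WT tumor 1, which had the lowest background, Icam2 stood at 96.9 times its expected background.

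Gata6 encodes the zinc finger factor that sets the identity of large peritoneal macrophages (chromosome 18, 11052064 to 11085635, plus strand). It had 162 to 338 counts per library in APC-KO tumor 1 and 256 to 417 in APC-KO tumor 2, against 98 to 153 and 138 to 295 in APC-WT tumors 1 and 2. As scaled CPM the lowest, median and highest library read 30.4, 35.8 and 59.8 in APC-KO tumor 1 and 30.2, 36.1 and 54.2 in APC-KO tumor 2. APC-WT tumor 1 had 0.904, 1.54 and 1.64, and APC-WT tumor 2 had 4.26, 4.80 and 6.25. The genotypes did not overlap, but the expected background moved in the same order, at 16.6 and 17.1 scaled CPM in APC-KO and 0.326 and 2.37 in APC-WT. Gata6 was thus 2.43 and 2.36 times its background in APC-KO tumors 1 and 2, and 4.25 and 2.08 times in APC-WT tumors 1 and 2.

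The range of that ratio among receptor genes gives a scale. Its 5th and 95th percentiles were 0.314 and 2.32 in APC-KO tumor 1, 0.322 and 2.32 in APC-KO tumor 2, 0.232 and 2.59 in APC-WT tumor 1, and 0.404 and 1.85 in APC-WT tumor 2. Gata6 lay above the upper end in all 4 tumors, by little except in APC-WT tumor 1. This was not particular to Gata6, since Gata3 and Zfpm1, of the GATA list below, also lay above it in all 4 tumors. Gata6 shares 93 exon bases with 1010001N08Rik on the opposite strand, which read 20.9 and 19.2 scaled CPM in APC-KO and 0.387 and 1.65 in APC-WT. The strand of the counting is not given, so reads of the 2 cannot be told apart there.

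Libraries 1 and 4 held the highest Gata6 values of both APC-KO tumors, a pattern seen after the values were known. They read 59.8 and 51.0 scaled CPM in APC-KO tumor 1 and 54.2 and 47.3 in APC-KO tumor 2, while no other APC-KO library passed 37.2. The same libraries of the APC-WT tumors did not stand apart, with 1.57 and 1.64 in tumor 1 and 5.21 and 4.65 in tumor 2. What libraries 1 and 4 share beyond their number is not given in the labels.

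Prg4 encodes lubricin, a mucin-like glycoprotein that coats joints and serosal surfaces (chromosome 1, 150449412 to 150466165, minus strand). It read 14.0, 16.3 and 22.2 scaled CPM in APC-KO tumor 1 and 16.1, 16.7 and 23.2 in APC-KO tumor 2 (lowest, median and highest library). APC-WT tumor 1 had 0.929, 1.47 and 1.71, and APC-WT tumor 2 had 1.5, 1.92 and 2.50. Background accounted for 10.9 and 11.2 scaled CPM in APC-KO and for 0.214 and 1.56 in APC-WT. The genotypes did not overlap, yet Prg4 was 1.56 and 1.62 times its background in APC-KO tumors 1 and 2 and 1.25 times in APC-WT tumor 2, all inside the receptor range. It passed that range only in APC-WT tumor 1, at 6.66 times. Prg4 also shares 204 exon bases with Tpr on the opposite strand, a nuclear pore gene at 172 and 184 scaled CPM in APC-KO and 94.5 and 99.5 in APC-WT.

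Alox15 encodes the 12/15-lipoxygenase, which oxidises arachidonic and linoleic acid and is induced by interleukin 4 in monocytes (chromosome 11, 70344152 to 70352031, minus strand). It read 7.65, 10.8 and 12.8 scaled CPM in APC-KO tumor 1 and 8.14, 10.6 and 12.1 in APC-KO tumor 2. APC-WT tumor 1 had 1.07, 1.19 and 1.32, and APC-WT tumor 2 had 0.802, 1.15 and 1.53. Alox15 had the fewest counts, 28 to 55 per library in APC-WT tumor 2. Against its background it stood at 1.65 and 1.64 times in APC-KO tumors 1 and 2 and 1.22 times in APC-WT tumor 2, inside the receptor range, and at 9.59 times in APC-WT tumor 1. The APC-WT tumors overlapped throughout, although their backgrounds were 0.123 and 0.893 scaled CPM.

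**Figure D2:**
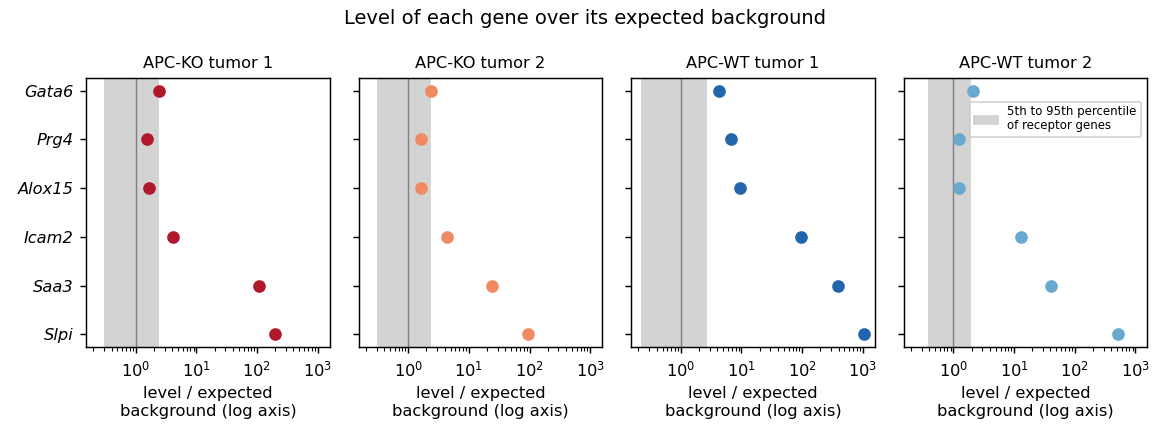
Level of each of the 6 genes divided by its expected background (log axis) in APC-KO tumors 1 and 2 and APC-WT tumors 1 and 2, with the libraries of a tumor summed. The grey band spans the 5th to 95th percentile of 1972 receptor genes: Prg4 and Alox15 lie inside it in 3 tumors, and Icam2, Saa3 and Slpi lie above it in all 4.

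In all, 15 of the 24 pairs of a gene and a tumor reached 3 times the expected background. They were the 12 pairs of Icam2, Saa3 and Slpi, and Gata6, Prg4 and Alox15 in APC-WT tumor 1. Per kb of the principal isoform and after background was taken off, Saa3 led in APC-KO tumor 1 with 1267 scaled CPM per kb, before Slpi with 668. In APC-KO tumor 2 Slpi had 335 and Saa3 280 scaled CPM per kb. In APC-WT tumor 1 Saa3 had 93.0 and Slpi 69.8, and in APC-WT tumor 2 Slpi had 255 and Saa3 68.4. Icam2 followed with 11.6 and 13.0 scaled CPM per kb in APC-KO and 7.13 and 6.52 in APC-WT. Gata6, Prg4 and Alox15 had at most 7.34, 1.63 and 1.71 scaled CPM per kb in any tumor, in the order Gata6, Alox15, Prg4 in both APC-KO tumors and in other orders in the APC-WT tumors. In bulk RNA, fewer cells of a type and less RNA per cell cannot be told apart.

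The first comparison set the sums of the 2 APC-KO tumors against those of the 2 APC-WT tumors over all 54201 genes tested (edgeR's quasi-likelihood test, Benjamini-Hochberg adjusted p below 0.05). All 6 of 6 genes were called higher in APC-KO, where 54.8% of all genes tested were called higher and 2.50% lower. That count says little about these genes. The median log2 change was 3.55 over all genes tested and 3.57 over 1970 receptor genes, against 0.0031 over the expressed genes. With TMM over all genes in place of the expressed genes, the median of all genes was 0.27 and that of the expressed genes -4.0, and 5 of the 6 changes turned negative.

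Gata6 changed by 3.68 ± 0.56 (log2 ± SE, adjusted p = 0.000799), Prg4 by 3.39 ± 0.66 (adjusted p = 0.00262) and Alox15 by 3.20 ± 0.84 (adjusted p = 0.0109). All 3 changes lay within 1 SE of the receptor median. Their changes after the expected background was subtracted were 3.89 ± 0.52, 3.23 ± 0.71 and 2.91 ± 0.96. Here and in every other fit after subtraction, library sizes were estimated anew from the subtracted counts. Such changes are therefore not on the scale of the levels above. That subtraction also left 815 receptor genes with a median of 4.56, so a residue remained on genes taken as silent. Without libraries 1 and 4 of each tumor, an alternative chosen after the data had been seen, the change of Gata6 was 3.47 ± 0.62. The calls of Prg4 and Alox15 were lost when either APC-KO tumor was left out, with adjusted p-values of 0.101 and 0.123 for Prg4 and 0.312 and 0.319 for Alox15.

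Icam2 changed by 1.18 ± 0.46 (adjusted p = 0.0467), between the median of expressed genes and that of the receptor genes, and by 1.05 ± 0.23 after background was subtracted (adjusted p = 0.0151). The call without subtraction sat at the threshold. It was lost with DESeq2 (adjusted p = 0.0553), without the filter on low counts (0.0514), without APC-KO tumor 1 (0.423) or tumor 2 (0.466), and with the tumor number as a block (0.135). Scaled to the total of expressed genes without TMM, Icam2 changed by 0.32 (adjusted p = 0.478). Saa3 changed by 3.27 ± 0.49 (adjusted p = 0.000741) and Slpi by 1.64 ± 0.46 (adjusted p = 0.0147). The call of Slpi was lost after subtraction of background (1.82 ± 0.70, adjusted p = 0.0660) and with scaling to the total of expressed genes without TMM (0.79 ± 0.43, adjusted p = 0.128).

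**Figure D3:**
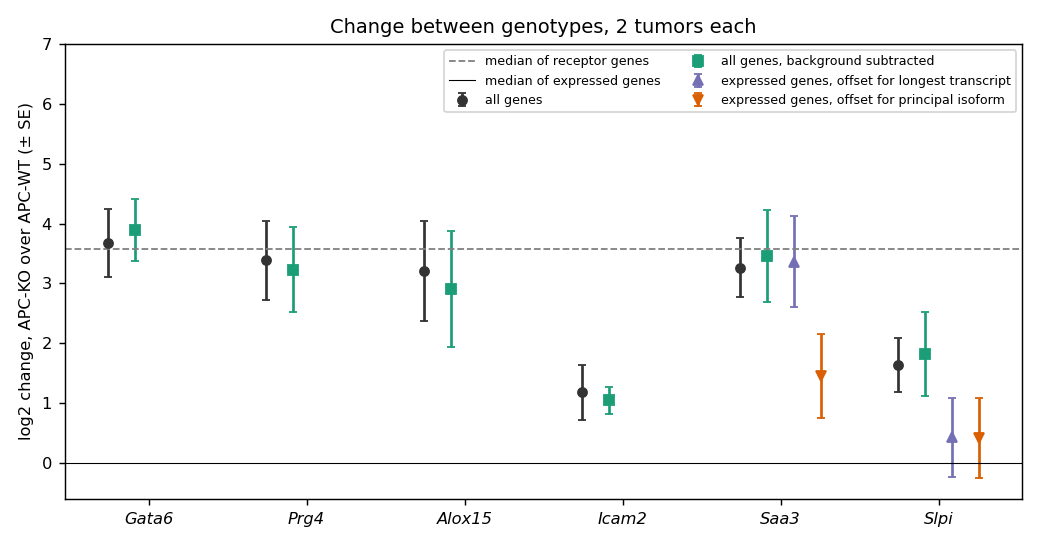
Log2 change of APC-KO over APC-WT with its SE, from 2 tumors each, for the 6 genes in the test of all genes, the same after subtraction of background, and for Saa3 and Slpi among expressed genes with an offset for transcript length. Dashed and solid lines mark the medians of receptor and expressed genes; with TMM over all genes, not drawn, each change except that of Gata6 turned negative.

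A second fit asked the same among the 3956 expressed genes alone, with an offset that removes the trend of each tumor's levels with the length of the longest transcript. Saa3 and Slpi were the 2 members in it, and 1 of them was called higher, where 27.9% of expressed genes were called higher and 21.7% lower. Saa3 changed by 3.36 ± 0.76 (adjusted p = 0.0218), and its direction was kept when any 1 tumor was left out (1.91 to 4.07). The longest annotated transcript of Saa3 has 2200 bases and its principal isoform 555. With the offset taken from the principal isoform the change was 1.46 ± 0.70 and was not called (adjusted p = 0.153). Slpi, whose longest transcript has 876 bases, changed by 0.43 ± 0.66 (adjusted p = 0.615), against 1.64 without the offset. It was -0.12 without APC-KO tumor 1 and -0.22 without APC-WT tumor 1, and 1.55 ± 0.44 without APC-WT tumor 2 (adjusted p = 0.0375), a fit in which the lone APC-WT tumor is assumed to vary like the other genotype.

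Tumors of the same genotype were compared over libraries, so these p-values measure the spread between libraries of a tumor, which may be technical. In APC-KO tumor 2 against APC-KO tumor 1, 2 of the 6 genes fell, where 1.20% of 48674 genes tested fell and 1.26% rose. Saa3 changed by -2.14 ± 0.04 (adjusted p = 1.91e-23) and Slpi by -0.99 ± 0.04 (adjusted p = 2.43e-17), and no library of tumor 2 reached the lowest of tumor 1. Gata6, Prg4, Alox15 and Icam2 changed by -0.04 ± 0.16, 0.06 ± 0.15, -0.01 ± 0.16 and 0.13 ± 0.11, none of them called. Thus the APC-KO tumors, whose backgrounds were nearly equal, had close levels of the 4 low genes and different levels of the 2 abundant ones.

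In APC-WT tumor 2 against APC-WT tumor 1, 3 of the 6 genes rose, where 80.7% of genes tested rose, and 1 fell, where 3.60% fell. Background differed between these tumors, and the median receptor gene changed by 2.92. Slpi changed by 1.89 ± 0.04 (adjusted p = 5.54e-24), far above its background in both tumors, and Saa3 by -0.39 ± 0.04 (adjusted p = 5.19e-09). Gata6 changed by 1.83 ± 0.17 (adjusted p = 4.13e-10) and Prg4 by 0.46 ± 0.15 (adjusted p = 0.00755), both less than the receptor median. The direction of Prg4 turned with TMM over all genes (-0.92), and its call was lost without library 2 of each tumor (0.37 ± 0.18, adjusted p = 0.0552). Alox15 and Icam2 changed by -0.08 ± 0.16 and -0.02 ± 0.11 and were not called, but with TMM over all genes both were called lower (-1.46, adjusted p = 3.81e-09, and -1.40, adjusted p = 6.14e-12).

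**Figure D4:**
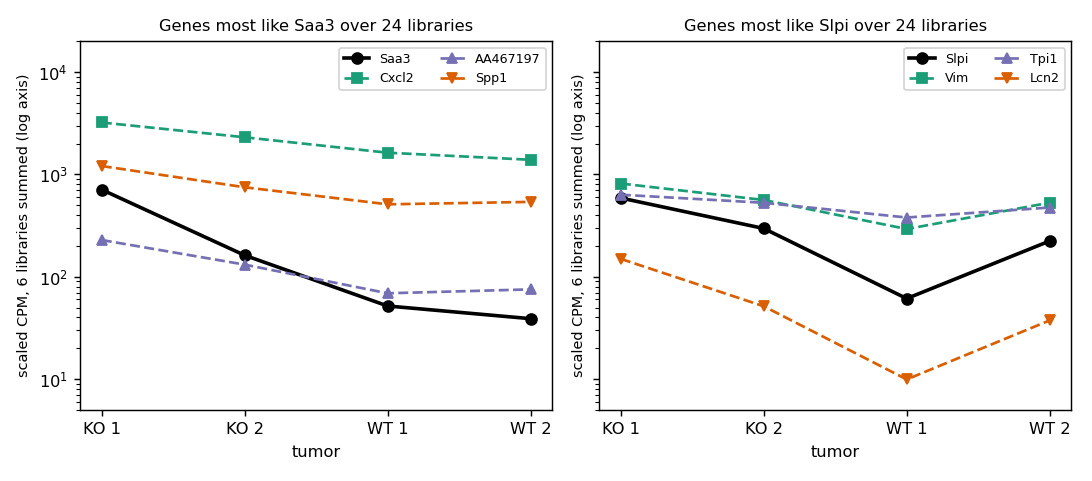
Scaled CPM (log axis) of Saa3 and Slpi with the 3 expressed genes most like each, in APC-KO tumors 1 and 2 (KO 1, KO 2) and APC-WT tumors 1 and 2 (WT 1, WT 2), with the 6 libraries of a tumor summed. The genes beside Saa3 are highest in APC-KO tumor 1 and lower in both APC-WT tumors than in either APC-KO tumor. Those beside Slpi are lowest in APC-WT tumor 1.

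The genes most like Saa3 and Slpi were found by Pearson correlation of log2(scaled CPM + 1) over the 24 libraries, which share 4 tumors and so hold 4 independent points. Nearest to Saa3 were Cxcl2 (r = 0.992), a chemokine that draws neutrophils, AA467197 (r = 0.983) and Spp1 (r = 0.983), the gene of osteopontin. Cxcl2 read 3221 and 2309 scaled CPM for APC-KO tumors 1 and 2, against 1631 and 1391 in APC-WT tumors 1 and 2. Spp1 read 1209 and 749 in APC-KO and 510 and 539 in APC-WT. Over the 4 tumors the spread of Saa3 was wider than that of either.

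Nearest to Slpi were Vim (r = 0.992), the intermediate filament of mesenchymal and activated myeloid cells, Tpi1 (r = 0.985), a glycolytic enzyme, and Lcn2 (r = 0.983), the siderophore-binding lipocalin. Lcn2 read 149 and 51.4 scaled CPM for APC-KO tumors 1 and 2 and 9.91 and 37.4 in APC-WT tumors 1 and 2. Vim read 815 and 563 in APC-KO and 293 and 529 in APC-WT. Saa3 and Slpi correlated less with each other (r = 0.765), since their orders differ between the APC-WT tumors.

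Of 12 neutrophil markers 4 were expressed, and with the length offset described above 0 rose and 1 fell, where 27.9% of expressed genes rose and 21.7% fell. That was Csf3r, the receptor of granulocyte colony-stimulating factor, with 76.1 and 58.5 scaled CPM for APC-KO tumors 1 and 2 against 171 and 244 in APC-WT tumors 1 and 2 (-1.14 ± 0.24, adjusted p = 0.0175, and 0.0671 and 0.110 without APC-KO tumor 1 or 2). S100a8 and S100a9, named after their values were seen, were not called. S100a9 read 123 and 47.4 scaled CPM for APC-KO tumors 1 and 2, against 12.0 and 52.4 in APC-WT tumors 1 and 2, and S100a8 read 61.6 and 26.9 against 6.44 and 27.1. Of the 12 markers, 7 and 6 reached 3 times their background in APC-KO tumors 1 and 2, and 11 and 6 in APC-WT tumors 1 and 2. Their summed level was 378 and 220 scaled CPM in APC-KO and 212 and 389 in APC-WT. The defining marker Ly6g stood at 1.36 and 1.18 times its background in APC-KO and 4.69 and 1.72 times in APC-WT. In APC-KO tumor 2 against APC-KO tumor 1, 5 of the 12 markers fell and 0 rose, where 1.20% of all genes tested fell. In APC-WT tumor 2 against APC-WT tumor 1 all 12 rose, where 80.7% of all genes tested rose. Slpi changed in the same directions. The part of neutrophils in the level of Slpi was not tested.

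Other lists place the 6 genes in their pathways. Of 26 genes of the peritoneal macrophage programme, 9 were expressed, and with the length offset 2 rose and 1 fell, with a median change of -0.15 beside 0.05 over all expressed genes. Of all expressed genes 27.9% rose and 21.7% fell in that fit, the shares against which the counts of the lists below are to be read. Thbs1, the gene of thrombospondin 1, fell, with 817 and 368 scaled CPM for APC-KO tumors 1 and 2 against 5006 and 6695 in APC-WT tumors 1 and 2 (-2.73 ± 0.49, adjusted p = 0.0115). Coagulation factor X (F10) and the retinoic acid receptor gene Rara rose, by 1.75 ± 0.47 (adjusted p = 0.0349) and 0.75 ± 0.21 (adjusted p = 0.0389). Both were named after their values were seen, and both calls were lost without APC-KO tumor 1 (adjusted p = 0.154 for F10 and 0.180 for Rara) or APC-KO tumor 2 (0.0653 and 0.103). Rara was also not called without APC-WT tumor 1 (adjusted p = 0.0593) or without the offset (0.28 ± 0.21, adjusted p = 0.290). The call of Thbs1 was lost without APC-KO tumor 2 (adjusted p = 0.0548). Laptm5, a lysosomal membrane gene, changed by -0.54 ± 0.19 and was not called (adjusted p = 0.0711), but was without the offset (-0.82, adjusted p = 0.0190) and without APC-WT tumor 2 (-0.73, adjusted p = 0.0326).

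Of the 26 genes of this programme 9 and 10 reached 3 times background in APC-KO tumors 1 and 2, and 21 and 15 in APC-WT tumors 1 and 2. Cd93 stood at 8.84 and 8.45 times and Serpinb2 at 4.02 and 4.04 times in APC-KO, and at 642 and 39.8 times and 149 and 37.6 times in APC-WT. Timd4, Cxcl13 and Vsig4 were lower beside background; these 5 were named after their values were seen. Timd4, a receptor for phosphatidylserine, read 6.08 and 6.39 scaled CPM for APC-KO tumors 1 and 2, or 1.10 and 1.12 times its background, and 0.339 and 1.56 in APC-WT tumors 1 and 2, or 3.11 and 1.97 times. The B cell chemokine Cxcl13 stood at 0.794 and 0.605 times its background in APC-KO and 7.06 and 1.11 times in APC-WT. The complement receptor gene Vsig4 stood at 0.308 and 0.437 times in APC-KO and 1.85 and 0.469 times in APC-WT. Garnl3 and Ltbp1, which the naming rule takes, were 1.64 to 2.00 times background in APC-KO and changed by 3.49 ± 0.40 and 1.5 ± 0.27 in the test of all genes.

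Of 7 other GATA factors and cofactors, Gata1 to Gata5, Zfpm1 and Zfpm2, none was among the expressed genes. All 7 were called higher in the test of all genes, where 54.8% of genes tested were, with a median change of 3.82 beside 3.57 for the receptor genes. One member of this list, Zfpm1, a GATA cofactor, reached 3 times its background in each tumor, with 45.3 and 36.8 scaled CPM for APC-KO tumors 1 and 2 and 1.49 and 5.49 in APC-WT tumors 1 and 2. Gata2 read 31.6 and 34.9 in APC-KO and 3.99 and 6.35 in APC-WT, with a change of 2.69 ± 0.43. Gata3 read 26.9 and 28.3 in APC-KO and 0.799 and 3.12 in APC-WT, with a change of 3.82 ± 0.67. The expected background of Gata3 was 10.2 and 10.5 scaled CPM in APC-KO and 0.199 and 1.45 in APC-WT. Gata3 and Zfpm1, like Gata6, lay above the 95th percentile of the receptor genes in each tumor. Gata2 did so except in APC-KO tumor 1, and Zfpm2 was inside the receptor range in both APC-KO tumors.

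Saa3 belongs to the acute phase and secreted defence genes. Of 21 others listed, 12 were expressed, and with the length offset 0 rose and 3 fell, with a median change of -0.48, where 27.9% of expressed genes rose and 21.7% fell. Cfb, of the alternative complement pathway, had a log2 change of -1.22 ± 0.17 and so fell (adjusted p = 0.00635), and Nfkbiz, a nuclear regulator of NF-kB targets, fell by 1.11 ± 0.19 (adjusted p = 0.0104). The formyl peptide receptor gene Fpr1, named after its value was seen, fell by 1.92 ± 0.43 (adjusted p = 0.0212). Without APC-KO tumor 1 or 2 the adjusted p was 0.0615 and 0.0536 for Cfb and 0.0835 and 0.0666 for Nfkbiz. Fpr1 was not called without APC-KO tumor 2 (0.0625) or without the offset (0.0576). Lcn2 changed by 1.52 ± 0.78 (adjusted p = 0.164, and 2.67 with 0.0281 without APC-WT tumor 2), Il6 by 1.34 ± 0.53 (adjusted p = 0.0947) and Wfdc17, a relative of Slpi with the same kind of inhibitor domain, by -0.57 ± 0.19 (adjusted p = 0.0615). The liver-type paralogs Saa1 and Saa2 read 10 to 18.8 scaled CPM in APC-KO, or 1.54 to 2.92 times background, and 0.339 to 3.13 in APC-WT. Since the Saa genes are near copies and the counting of shared reads is not given, small values of Saa1 and Saa2 are uncertain.

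The same list changed between tumors of 1 genotype. In APC-KO tumor 2 against APC-KO tumor 1, 6 of the 21 genes fell and 3 rose, where 1.20% of all genes tested fell and 1.26% rose. Lcn2 (-1.56), Il6 (-1.25), Fpr1 (-1.14), Fpr2 (-0.99), Wfdc17 (-0.59) and Il1b (-0.57) fell as Saa3 and Slpi did, and Tnf (0.70), Nfkbiz (0.23) and Cfb (0.23) rose. In APC-WT tumor 2 against APC-WT tumor 1, 16 rose and 4 fell, where 80.7% of all genes tested rose.

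The lipoxygenase pathway gave few calls. Alox5, named for its role, which opens leukotriene synthesis, read 11.2 and 15.1 scaled CPM for APC-KO tumors 1 and 2, or 1.06 and 1.40 times background, and 3.08 and 10.3 in APC-WT tumors 1 and 2, or 15 and 6.91 times. Of 12 listed genes 4 were expressed, and with the offset 0 rose and 1 fell (median change -0.41). Ptgs2, the inducible cyclooxygenase, fell by 1.60 ± 0.33 (adjusted p = 0.0164, and 0.0718 without APC-KO tumor 2). Ptgs1, Alox5ap and Gpx4 changed by -0.69 ± 0.41, -0.12 ± 0.11 and 0.10 ± 0.12 and were not called. Gpx4 was called higher without the offset (1.14 ± 0.11, adjusted p = 0.00162), and Ptgs1 lower without APC-WT tumor 2 (-1.16 ± 0.27, adjusted p = 0.0220).

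Interleukin 4 induces Alox15 in monocytes, and genes of that response were listed for this reason. Of 14 listed genes 10 were expressed, and with the offset 0 rose and 4 fell (median -0.61, beside 27.9% higher and 21.7% lower over all expressed genes). Stat6, the factor that relays the signal, read 80.5 and 81.6 scaled CPM for APC-KO tumors 1 and 2 against 316 and 299 in APC-WT tumors 1 and 2 (-1.39 ± 0.12, adjusted p = 0.00272). Il13ra1 fell by 1.54 ± 0.17 (adjusted p = 0.00391), Il4ra by 0.82 ± 0.17 (adjusted p = 0.0161) and the transglutaminase gene Tgm2 by 0.93 ± 0.25 (adjusted p = 0.0332). The calls of Stat6 and Il13ra1 held with any 1 tumor left out. Il4ra was not called without APC-KO tumor 1 (adjusted p = 0.0648), without APC-KO tumor 2 (0.108) or with the tumor number as a block (0.0538). Tgm2 was not called without either APC-KO tumor (0.0629 and 0.150), with that block (0.0715) or after background was subtracted (0.0873).

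Partners of Icam2 and of the Prg4 protein, which binds CD44 and Toll-like receptors, were listed next. Of 14 genes 11 were expressed, and with the offset 0 rose and 7 fell (median -0.73, beside 27.9% higher and 21.7% lower over all expressed genes). The integrin chains Itgam (-1.97 ± 0.16, adjusted p = 0.00255) and Itgb2 (-1.39 ± 0.20, adjusted p = 0.00671), the cortical linker Msn (-1.96 ± 0.15, adjusted p = 0.00253) and Tlr2 (-1.68 ± 0.23, adjusted p = 0.00595) fell. Itgal, the chain of LFA-1 that pairs with Itgb2 to bind ICAM2, fell by 0.72 ± 0.13 (adjusted p = 0.0128), while Cd44 changed by 0.67 ± 0.29 (adjusted p = 0.119). Itgal was named for its role after its value was seen. The calls of Itgam and Msn held with any 1 tumor left out. Without APC-KO tumor 1 or 2 the adjusted p was 0.0586 and 0.0619 for Tlr2 and 0.0865 and 0.101 for Itgal, and Itgb2 was lost without APC-KO tumor 2 (0.0617). Small peritoneal and monocyte-derived macrophage genes were expressed in 7 of 12 cases, and 0 rose and 3 fell (median -0.59). These were Itgax and the class II genes Cd74 (-1.52 ± 0.27) and H2-Ab1 (-1.60 ± 0.26), while H2-Aa (-0.59 ± 0.22) was not called. H2-Aa was called lower without the offset (-1.04 ± 0.22, adjusted p = 0.0134) and with the principal isoform length (-1.87 ± 0.21, adjusted p = 0.00579). The calls of Itgax, Cd74 and H2-Ab1 were each lost without either APC-KO tumor, with adjusted p-values of 0.0588 to 0.0842.

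The antigens used in the sort were lower in APC-KO. Ptprc (CD45) fell by 0.94 ± 0.15 (adjusted p = 0.00851), Itgam (CD11b) by 1.97 ± 0.16 and Adgre1 (F4/80) by 1.64 ± 0.15 (adjusted p = 0.00284) with the length offset. Adgre1 read 182 and 187 scaled CPM for APC-KO tumors 1 and 2 against 831 and 741 in APC-WT tumors 1 and 2. Of the 10 pan-macrophage markers 0 rose and 3 fell, among them Csf1r (-1.69 ± 0.21, adjusted p = 0.00487). The call of Adgre1 held with any 1 tumor left out, while without APC-KO tumor 1 or 2 the adjusted p was 0.0746 and 0.0674 for Ptprc and 0.0551 and 0.0502 for Csf1r. C1qa and C1qb changed by -0.35 ± 0.28 and -0.43 ± 0.25 and were not called. The summed level of the list was 18506 and 19270 scaled CPM in APC-KO and 19891 and 16756 in APC-WT.

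Mesothelial cells line the cavity and share some of these markers. Their 10 markers summed to 201 and 227 scaled CPM for APC-KO tumors 1 and 2, where 158 and 162 were expected as background, and to 30.5 and 115 in APC-WT tumors 1 and 2, where 3.09 and 22.5 were expected. Krt19, also a marker of epithelium, made up most of the APC-WT sums with 20.3 and 85.6 scaled CPM. Msln read 14.6 and 28.4 in APC-KO and 5.02 and 5.47 in APC-WT, and Upk3b 33.6 and 33.0 in APC-KO and 0.702 and 2.75 in APC-WT. In each tumor 3, 4, 5 and 2 of the 10 reached 3 times background, counting APC-KO tumors 1 and 2 and then APC-WT tumors 1 and 2. The part of mesothelial cells in the levels of Gata6 and Prg4 was not tested.

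**Figure D5:**
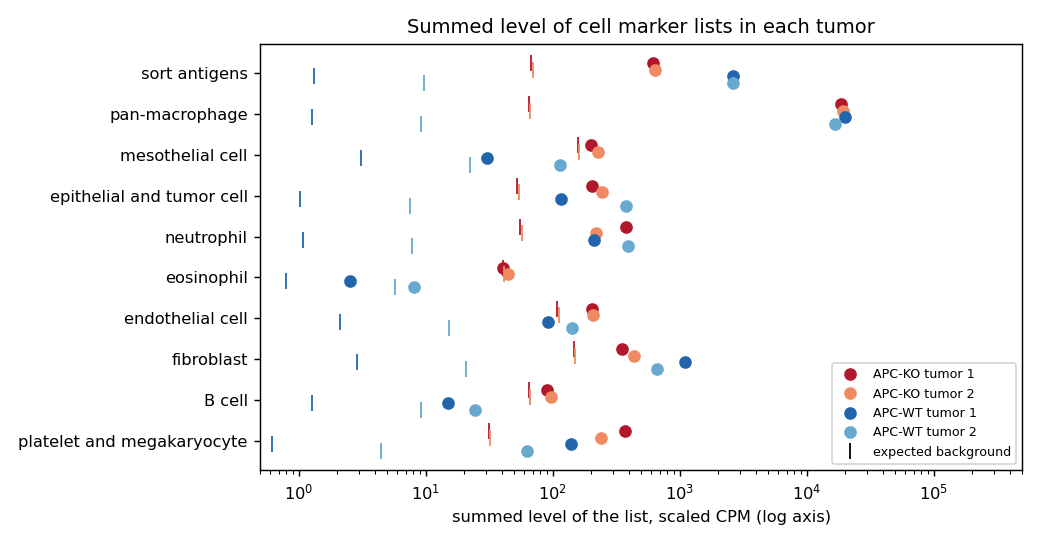
Summed scaled CPM (log axis) of 10 lists of cell markers in APC-KO tumors 1 and 2 and APC-WT tumors 1 and 2, with ticks for the summed expected background. Eosinophil markers lie on their background in APC-KO, and fibroblast markers sum to 353 and 440 in APC-KO against 1110 and 667 in APC-WT.

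Eosinophils express Alox15. Their 8 markers summed to 40.4 and 44.7 scaled CPM for APC-KO tumors 1 and 2 (background 40.5 and 41.6) and to 2.55 and 8.16 in APC-WT tumors 1 and 2 (background 0.793 and 5.77). None of the 8 reached 3 times background in APC-KO, and 2 and 0 did in APC-WT tumors 1 and 2, while Prg3 was at 0 in APC-WT tumor 1. The part of eosinophils in the level of Alox15 was not tested. Endothelial cells, which express Icam2, gave 203 and 207 scaled CPM over 9 markers in APC-KO and 91.5 and 142 in APC-WT, with backgrounds of 108 and 111 and of 2.12 and 15.4. Among the 9, Cdh5 changed by 3.61 ± 0.59 and Kdr by 1.80 ± 0.40 in the test of all genes, beside the receptor median of 3.57. The part of endothelial cells in the level of Icam2 was not tested.

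The other lists were as follows. B cell markers summed to 90.0 and 96.6 scaled CPM in APC-KO (background 65.0 and 66.9) and 15 and 24.4 in APC-WT (background 1.27 and 9.26), and platelet and megakaryocyte markers to 375 and 242 in APC-KO (background 31.3 and 32.2) and 140 and 63.4 in APC-WT (background 0.614 and 4.46), mostly Pf4. Epithelial and tumor cell markers summed to 205 and 244 in APC-KO (background 52.6 and 54.1) and 117 and 379 in APC-WT (background 1.03 and 7.49). Among fibroblast markers Col3a1 fell by 2.03 ± 0.42 with the length offset (adjusted p = 0.0171) and Col1a1 by 0.87 ± 0.25 (adjusted p = 0.0412). Neither was called without APC-KO tumor 1 (0.0879 and 0.171) or APC-KO tumor 2 (0.0553 and 0.0692), nor Col1a1 without APC-WT tumor 1 (0.0711) or with the tumor number as a block (0.0547).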

How the data were processed

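The authors deposited raw counts of 24 libraries over 55487 Ensembl gene IDs. The tools HISAT2, StringTie and bcl2fastq 2.20.0 and the build mm9 are named, per the submitters' processing notes; roles, strand and the annotation are not given in the sources used here. Per the labels' protocols, total RNA of sorted cells was processed with Nextera XT, with 6 libraries labelled as replicates for each tumor. Symbols, lengths and positions come from GENCODE M21 (GRCm38) by gene ID, 55141 with a symbol and 55227 with a length, so coordinates are not those of the build in the notes. Promoters are from RefSeq (GRCm38.p6).

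From the deposited counts, the libraries of a tumor were summed for the genotype tests (2 against 2) and kept apart for tumors within a genotype. Tests were edgeR's quasi-likelihood test (4.0.16, R 4.3.3) with filterByExpr and Benjamini-Hochberg adjustment at 0.05; the SE is the log2 change over the square root of F. Expected background is the summed count per kb of 1407 Olfr and 565 Vmn genes times a gene's exonic length. Expressed genes were the 3956 with a 4-tumor mean CPM of 10 or more that was also 10 or more times the expected background, and TMM over them gave the library sizes. The length offset was a loess fit with span 0.5 on log2 CPM with a prior count of 2. Satellite-like loci share at least 0.4 of their 15-mers with Gm10800. DESeq2 1.42.0, limma 3.58.1 and other scalings were alternatives. Python 3.11.15 with matplotlib 3.10.9, scipy 1.17.1, pandas 2.3.3 and numpy 2.4.6 made tables and plots.

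The 6 genes, the 17 lists, the tests and the rule for named genes were chosen with earlier results of these data known. The rule takes the 6 genes, of each list up to 4 genes with the smallest p in the test of all genes that reach 3 times background in a tumor, all sort antigens, and the 3 expressed genes most correlated with a member; 1 gene that it takes is not reported here. The labels do not say that the 6 libraries of a tumor are separate animals or cultures. The 60 pairs of libraries within a tumor differed beyond sampling noise (chi-square per gene 6.95 to 473), so none was counted as a duplicate. On simulated data of the genotype test over all genes (54048 genes), 82.5% of changes of 1 log2 unit were recovered with 5 false calls. Among expressed genes with the offset (3956 genes) 96% were recovered with 12 false calls. The simulated genotypes had the same background and a fixed spread between tumors. These counts therefore do not measure false calls in the real data, where background differed between genotypes.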

Additional observations from a re-analysis of the deposited data

Results flagged for a closer look

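One value stood far from the others of its group. Icam2 in library 1 of APC-KO tumor 2 read 16 scaled CPM, below the other 5 libraries of that tumor at 21.1 to 23.1, with a gap that passed Dixon's 95% limit of 0.625 for 6 values. It was the only one among 24 groups of 6 libraries, of which chance alone would pick about 1 in 20. In scaled CPM before background was taken off, the genotypes, with 2 tumors each, did not overlap in Icam2 with or without it. The highest APC-WT library read 10.8. With background taken off they overlapped, through library 2 of APC-KO tumor 1.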

How the results depend on the processing

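The scaling decided the test of all genes. With TMM over all genes it made 0 calls with edgeR (18698 genes at an unadjusted p under 0.05, lowest adjusted p 0.0943), against 31029 calls with TMM over expressed genes and 40335 with DESeq2. The changes that turned with it were Prg4 (-0.49), Alox15 (-0.84), Icam2 (-2.85), Saa3 (-0.85), Slpi (-1.79), Garnl3 (-0.14), Ltbp1 (-2.48), Gata2 (-1.13), Zfpm2 (-1.70), Msln (-1.95), Krt7 (-0.96), Vil1 (-2.48), Krt18 (-2.56), Ngp (-0.70), Siglecf (-1.35), Ccr3 (-0.62), Cdh5 (-0.048), Egfl7 (-0.26), Kdr (-2.36), Pdgfra (-2.26) and Gp9 (-0.16), and Prg4 between the APC-WT tumors (-0.92). Scaling to the total of expressed genes without TMM, chosen after seeing the data, gave 16696 calls and turned Krt18 (-0.11); Slpi (0.79, adjusted p = 0.128) and Icam2 (0.32, adjusted p = 0.478) were then not called. That total includes the satellite-like loci, and without them the same scaling gave 29671 calls, with Slpi at 1.56 (adjusted p = 0.00624) and Icam2 at 1.12 (adjusted p = 0.0595).

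With the tumor number as a replicate block 18410 genes were called in the test of all genes, and Icam2 was not (1.18, adjusted p = 0.135); with the numbers crossed 17665 were called. Same-numbered libraries correlated at -0.452 to 0.718 over 36 pairs, 8 of them above 0.1, and the tumors at -0.372, so the numbers were not taken to pair samples, although 4 of the 6 pairs between the APC-WT tumors correlated at 0.622 to 0.718; with the library number as a block 40652 genes were called between those tumors, against 41016. Leaving out 1 tumor gave 6501 to 51153 calls in the test of all genes and 533 to 1996 with the length offset, where 1961 were called with all tumors. Subtracting background turned Vil1 (-0.083), Krt7 (-0.21), Ccr3 (-0.38) and Zfpm2 (-12.07). Without the length offset Cd79b (0.27), C1qb (0.50), Alox5ap (0.60), C1qa (0.64) and Wfdc17 (1.20) turned positive, and with the principal isoform Pf4 was -0.026. Some values turned when samples were left out, with these ranges. With 1 tumor left out they were -0.22 to 1.55 for Slpi (-0.12 without APC-KO tumor 1), -0.55 to 0.87 for Pf4 (-0.32 without APC-KO tumor 1), -0.029 to 2.31 for Krt18 and -0.029 to 0.172 for Gpx4. With 1 library left out within a genotype they were -0.102 to 0.112 for Alox15 (0.04 without library 4) and -0.088 to 0.00073 for Gata6 between the APC-KO tumors, and -0.091 to 0.016 for Icam2 between the APC-WT tumors (0.014 without library 4). For the other turned or lost values the cause was not tested. Of 235 alternative values of the 6 genes 202 kept direction and call. That count pools the genotype tests with the comparisons within a genotype, and values that were never called count as kept. It therefore does not measure how well the genotype calls held. The 15 pairs at 3 times background were 15 with the median receptor rate and 18 with the longest transcript as length. Both background and depth limit what can be read for Gata6, Prg4 and Alox15 in APC-KO.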
